A study of Homo sapiens with 30 samples.

Results

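The clustered core and linker histone genes were followed in the established melanoma line A375, of human origin, through 24 h of exposure to the inhibitor MLN4924. Members were the genes with a single annotated symbol beginning with H1-, H2AC, H2BC, H3C or H4C, or with the older HIST1 to HIST4. Pseudogenes, the variant H2AX and an antisense RNA of H1-10 were left out. The rule gave 55 probe sets for 47 genes, out of 54675 probe sets in the table and 19775 genes with a probe set of their own. They comprised 12 probe sets for linker histone H1 (9 genes), 10 for H2A (8 genes), 15 for H2B (14 genes), 9 for H3 (8 genes) and 9 for H4 (8 genes). Of the 47 genes, 40 lie in the HIST1 cluster, 1 in HIST2, 2 in HIST3 and 4 outside the clusters. Another 20 histone probe sets carried several symbols, because these genes are nearly identical in sequence, and were not members.

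Cells received 650 nM MLN4924 or 0.065% DMSO, the vehicle, for 1, 2, 4, 8 or 24 h, and RNA from each of these 10 groups was hybridized to 3 HG-U133 Plus 2.0 arrays, which made 30 arrays. MLN4924 (pevonedistat) blocks the enzyme that activates NEDD8, and so the cullin-RING ubiquitin ligases. A375 is 1 cell line, all groups grew in the same serum-containing medium, and there were no untreated cells. The labels do not say whether the replicates were separate cultures, so p-values measure the spread between these arrays, which may be technical.

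Core histones H2A, H2B, H3 and H4 form the protein spool of the nucleosome, and H1 binds the DNA that links nucleosomes. Most clustered histone genes are read in S phase, when new DNA has to be packaged, by a machinery that includes NPAT, a substrate of cyclin E with CDK2. Their messages usually end in a stem-loop held by SLBP instead of a poly(A) tail. The labelled RNA was made with a MessageAmp-based method, and such methods start from poly(A) tails. How much of each histone message the arrays could capture was not tested.

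Promoters of 4 genes with called falls are shown here, because they display the shared parts of histone promoters and how far single genes depart from them. Each is the 250 bases before the RefSeq gene start (build GRCh38.p14), 5′ to 3′ on the gene's strand. Capitals mark CCAAT, the TATA box motif TATAAA, the octamer ATTTGCAT and the E2F-type motifs TTTCGCGC and TTTCCCGC, each searched on both strands, and overlapping or adjacent matches run together.
H2BC12, chr6:27146859-27147108, minus strand: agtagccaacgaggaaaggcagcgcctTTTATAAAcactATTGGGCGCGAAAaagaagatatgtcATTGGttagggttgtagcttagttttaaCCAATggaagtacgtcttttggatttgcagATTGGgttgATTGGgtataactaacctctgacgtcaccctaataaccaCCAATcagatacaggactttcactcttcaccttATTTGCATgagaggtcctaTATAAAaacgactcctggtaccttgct
H1-10, chr3:129316287-129316536, minus strand: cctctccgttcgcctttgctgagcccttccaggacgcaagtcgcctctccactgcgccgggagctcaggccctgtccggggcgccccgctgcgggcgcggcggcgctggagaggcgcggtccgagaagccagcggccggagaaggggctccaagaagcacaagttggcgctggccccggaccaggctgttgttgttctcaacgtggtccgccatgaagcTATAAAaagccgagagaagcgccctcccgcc
H2AC6, chr6:26123922-26124171, plus strand: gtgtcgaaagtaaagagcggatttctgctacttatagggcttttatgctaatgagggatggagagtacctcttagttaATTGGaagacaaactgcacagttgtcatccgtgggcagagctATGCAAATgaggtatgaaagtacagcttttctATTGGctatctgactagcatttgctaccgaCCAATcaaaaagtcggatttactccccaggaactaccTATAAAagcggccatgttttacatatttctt
H2AC25, chr1:228457874-228458123, minus strand: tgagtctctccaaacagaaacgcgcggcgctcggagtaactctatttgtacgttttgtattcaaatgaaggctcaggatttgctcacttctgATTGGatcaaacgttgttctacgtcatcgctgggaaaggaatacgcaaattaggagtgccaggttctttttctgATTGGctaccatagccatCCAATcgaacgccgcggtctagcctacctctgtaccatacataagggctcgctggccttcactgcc

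Of the 47 genes, 44 matched the RefSeq promoter table. CCAAT was found in 38 of the 44 (86.4%), against 33.0% of all 27305 promoters of that length. TATAAA was found in 29 (65.9%, against 11.1%), the octamer in 16 (36.4%, against 1.7%), TTTCGCGC in 9 (20.5%, against 0.5%) and TTTCCCGC in 1 (2.3%, against 1.4%). The octamer, which POU factors bind, was in 6 of 8 H2A and 10 of 13 H2B promoters and in none of the 9 H1, 7 H3 and 7 H4 promoters. The pairs H2AC6 and H2BC4, H2AC14 and H2BC14, H2AC15 and H2BC15, and H2AC17 and H2BC17 start 194 to 246 bases apart. Their windows overlap, so a single match can count for both genes of a pair. H2BC12 had 6 CCAAT, 3 TATAAA, 1 octamer and 1 TTTCGCGC match, and H2AC6 had 3 CCAAT, 1 TATAAA and 1 octamer match. H2AC25 held 3 CCAAT matches and none of the other motifs. H1-10 held 1 TATAAA match and no CCAAT, whereas 8 of the 9 H1 promoters held CCAAT. These counts describe letters in a window and no binding was measured.

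Most histone probe sets were dim. Their mean normalized signal over the 30 arrays had a median of 17.7, while the median over all probe sets was 36.2, and 16 of 55 lay above it. These above-median ones were 7 of the 15 H2B, 3 of the 12 H1, 3 of the 10 H2A, 2 of the 9 H4 and 1 of the 9 H3 probe sets. Changes are on the scale log2(signal + 32), which compresses those of dim probe sets. A probe set was called at a Benjamini-Hochberg adjusted p under 0.05 in limma, over all 54613 probe sets. All samples held signal for the melanoma genes SOX10 (304.5 to 1126), MITF (221.9 to 381.7) and CSPG4 (176.2 to 424.2). The pigment genes PMEL (at most 37.4) and MLANA (at most 33.3) had low signals. Markers of other cell types ranged from low, as PTPRC of blood cells (at most 24.8) and EPCAM (at most 21.0) and CDH1 (at most 21.1) of epithelia, to higher signals for COL1A1 of fibroblasts (84.9 to 224.5), KRT14 of keratinocytes (44.2 to 170.7), HBB of red cells (103.5 to 173.2) and PECAM1 of endothelium (57.0 to 110.9). The source of these signals was not tested.

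With MLN4924 most histone probe sets had no call at each time, as did most of the table. The few lower calls began at 4 h with H2AC6 alone, and all of them lay above the table's median signal. At 1 h no member was called in limma (4 of 55 at an unadjusted p under 0.05), when 0.0201% of all probe sets were called. At 2 h none was called either (3 of 55 unadjusted), with 0.313% called in the table. At 4 h 1 member was lower and none higher, against 0.943% of all probe sets lower and 1.11% higher. At 8 h 5 were lower and none higher, against 4.64% and 5.1%. At 24 h 6 probe sets of 5 genes were lower and 4 were higher, against 12.6% and 12.2%, so that 10 of 55 were called where 24.8% of the table was. The F test over the 5 times called 8 of 55, and 23.1% of the table. In all, 10 of 47 genes were called at some time and 37 at none, while 42.4% of the 19775 genes in the table had a probe set called at some time. With DMSO replicate 3 of 24 h omitted, 6 probe sets were called at that time, 1 higher and 5 lower. At 8 h, 3 were called when either DMSO replicate 3 or MLN4924 replicate 3 was omitted. Tests of the change in effect called no member from 1 to 2 h (0.0586% of the table), 2 to 4 h (0.223%) or 4 to 8 h (0.696%), and 2 higher (5.86%) and 1 lower (6.56%) from 8 to 24 h.

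The linker histone H1-10, a gene outside the clusters that is expressed independently of replication, was the brightest H1 member. At 4 h its signals were 395.2, 465.4 and 443.4 with DMSO and 327.3, 325.4 and 340.2 with MLN4924, a difference that was not called (-0.36, adjusted p = 0.12). At 8 h they were 449.3, 346.6 and 398.3 against 202.5, 220.4 and 205.8. At 24 h they were 442, 317 and 336.5 against 206.5, 164.3 and 192.3. The groups did not overlap at these 3 times, and every treated array lay below every vehicle array. H1-10 fell by 0.83 at 8 h (SE 0.11, limma adjusted p = 1.63e-05) and by 0.85 at 24 h (SE 0.11, adjusted p = 2.06e-06). Its treated mean was 76.1% of the vehicle mean at 4 h, 52.6% at 8 h and 51.4% at 24 h.

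H2BC12, which codes for an H2B of the HIST1 cluster, had the deepest fall of all members at 24 h. Its treated signals at 4 h, 282, 451.2 and 326.5, still overlapped with the vehicle signals of 363.5, 406.5 and 415.9. At 8 h the signals were 362.9, 364.8 and 405.1 with DMSO and 234.3, 286.7 and 235.5 with MLN4924. At 24 h they were 482, 347.6 and 356.4 with DMSO and 129.9, 88.5 and 99.9 with MLN4924. Vehicle signals were of similar size at both times, and the treated ones did not overlap with them. H2BC12 fell by 0.53 at 8 h (SE 0.14, adjusted p = 0.0116) and by 1.63 at 24 h (SE 0.14, adjusted p = 1.06e-09), where the treated mean was 26.8% of vehicle. The difference between the 2 times was itself called (-1.10, SE 0.19, adjusted p = 0.000237). Omitting DMSO replicate 3 of 8 h ended the call at that time (adjusted p = 0.0555), as did omitting replicate 1 or 3 of MLN4924 (0.0537 each) or median centring (0.0716).

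**Figure D1:**
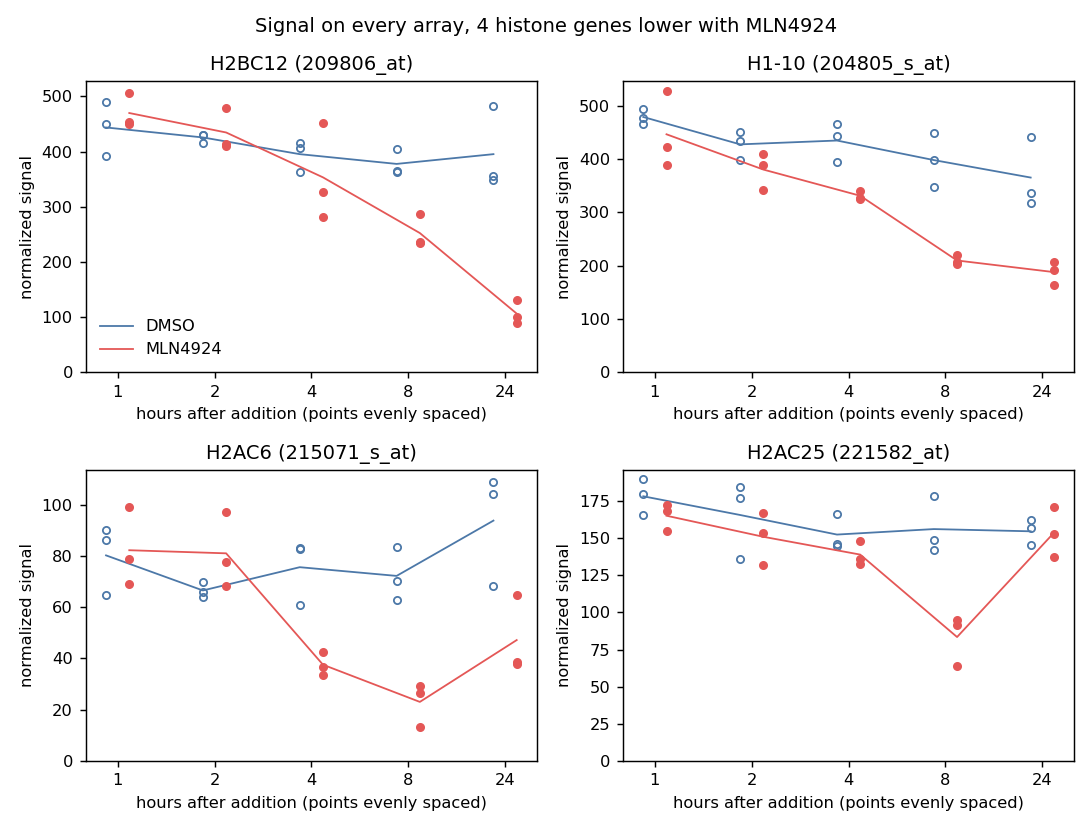
Normalized signal (linear, from 0) of H2BC12, H1-10, H2AC6 and H2AC25 on each of the 30 arrays by hours after addition, with evenly spaced times. Open blue points are DMSO, filled red points are MLN4924 and lines join the means of 3 arrays. The treated arrays of H2BC12 fall to between 88.5 and 129.9 at 24 h. Those of H1-10 lie between 164.3 and 220.4 from 8 h. The brighter H2AC25 probe set, shown here, is low at 8 h only.

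H2AC6, an H2A gene of the HIST1 cluster, was the first histone gene called. At 4 h its signals were 82.9, 60.9 and 82.8 with DMSO and 42.4, 33.6 and 36.5 with MLN4924. At 8 h they were 62.8, 83.4 and 70.3 against 26.6, 29.2 and 13.2, and at 24 h 108.8, 68.2 and 104.2 against 37.9, 38.6 and 64.9. The groups did not overlap at any of these times, although at 24 h the highest treated array came close to the lowest vehicle array. H2AC6 fell by 0.63 at 4 h (SE 0.15, adjusted p = 0.0255), 0.93 at 8 h (SE 0.15, adjusted p = 0.000153) and 0.67 at 24 h (SE 0.15, adjusted p = 0.00138). Its treated mean was 49.6%, 31.9% and 50.3% of vehicle at the 3 times. With 1 in place of 32 added to the signals, H2AC6 fell by 1.67 at 8 h, and the change of -0.98 at 4 h was no longer called (adjusted p = 0.0574). Omitting replicate 1 (0.127) or 3 (0.129) of DMSO at 4 h also ended the 4 h call. So did omitting replicate 2 (0.117) or 3 (0.0872) of MLN4924 at 4 h, and fitting those 6 arrays alone (0.0766).

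H2AC25, the brightest H2A probe set and a gene of the HIST3 cluster, was low at 8 h and not at 24 h. At 8 h its signals were 178.2, 148.8 and 141.8 with DMSO and 91.9, 94.6 and 63.8 with MLN4924. At 24 h they were 157, 162.1 and 145.2 against 152.9, 137.1 and 171.3. The groups were apart at 8 h and overlapped at 24 h. The change was -0.71 at 8 h (SE 0.11, adjusted p = 7.25e-05) and -0.01 at 24 h (95% interval -0.24 to 0.21, adjusted p = 0.969), and the effect differed between these times by 0.70 (SE 0.15, adjusted p = 0.00244). A second, dimmer probe set of the gene was not called at either time (-0.43 at 24 h, adjusted p = 0.17). Its 8 h signals were 31.3, 22.8 and 10.8 with DMSO and 9.1, 2.8 and 5.5 with MLN4924. Its treated mean was 26.8% of vehicle at 8 h and 45.9% at 24 h. The return to the vehicle level was thus seen on the brighter probe set only. ACTB 3′ to 5′ signal ratios, a measure of RNA quality, averaged 1.23 with DMSO and 1.36 with MLN4924 at 8 h, against 1.29 in both groups at 24 h. With that ratio as a covariate, H1-10, H2AC25 and H2AC6 kept their calls at 8 h.

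**Figure D2:**
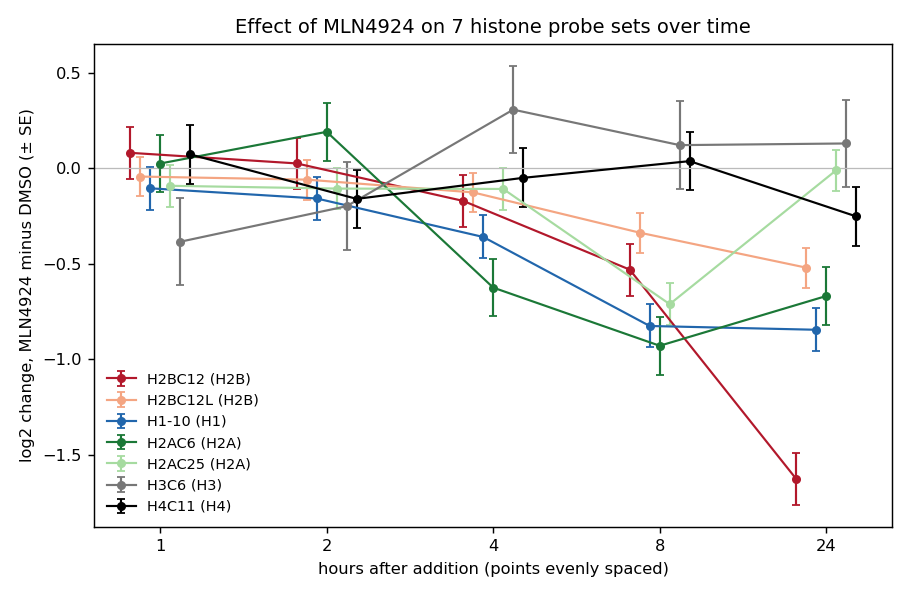
Log2 change (MLN4924 minus DMSO, on the log2(signal + 32) scale) of 7 histone probe sets at 5 evenly spaced times, with bars of 1 SE from the limma fit of 30 arrays. H2BC12 reaches -1.63 at 24 h and H1-10 stays near -0.85 from 8 h. The brighter H2AC25 probe set returns to -0.01, and H3C6 and H4C11 have no called change.

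The other calls on the lower side were H2B genes. H2BC12L, a copy of the H2B gene outside the clusters, had signals of 125.5, 168.4 and 165 with DMSO and 118.4, 121.8 and 101.3 with MLN4924 at 8 h. At 24 h the signals were 155.1, 131.8 and 144.2 against 98.1, 72.7 and 102.2. All treated arrays lay below all vehicle arrays at both times. H2BC12L fell by 0.34 at 8 h (SE 0.10, adjusted p = 0.0405) and by 0.52 at 24 h (SE 0.10, adjusted p = 0.000404). The 8 h call was lost under 10 of 16 alternatives, with adjusted p-values of up to 0.195. Among these were omitting replicate 2 (0.173) or 3 (0.158) of DMSO at 8 h, or replicate 1 (0.066), 2 (0.0536) or 3 (0.181) of MLN4924 at 8 h, and the ACTB covariate (0.0555).

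H2BC5, an H2B gene of the HIST1 cluster, had a pair of probe sets that were both lower at 24 h. The first had 120.4, 126.6 and 96.1 with DMSO and 81.4, 90.1 and 73.0 with MLN4924. The second had 96.9, 81.2 and 84.5 with DMSO and 64.7, 67.5 and 62.3 with MLN4924. Neither pair of groups overlapped. The changes were -0.36 (SE 0.10, adjusted p = 0.0098) and -0.30 (SE 0.11, adjusted p = 0.0452). Omitting replicate 2 of DMSO (0.0634) or replicate 3 of MLN4924 (0.0587) at 24 h ended the call of the first. Omitting any 1 of the 6 arrays of 24 h ended that of the second (0.0523 to 0.181). Both end in _x_at, which marks probes that can match related genes, so these signals cannot be assigned to H2BC5 alone. The same holds for H2BC12L, H2AC14, H2BC9, H4C11 and the dimmer H2AC25 probe set. H1-10, H2AC6, H3C2 and H2BC21 have _s_at probe sets, which can match several transcripts. With both kinds of probe set removed, 2 members were called at 8 h and 4 at 24 h.

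On the higher side at 24 h, 1 gene each of H1, H2A, H2B and H3 was called, all dim. H2AC17 had 20.7, 23.5 and 12.9 with DMSO and 51.8, 31.7 and 45.4 with MLN4924, and rose by 0.55 (SE 0.19, adjusted p = 0.0331). H3C2 had 12.3, 7.0 and 1.3 against 22.2, 23.5 and 17.4, and rose by 0.46 (SE 0.12, adjusted p = 0.00612). H1-1 had 4.2, 4.2 and 5.3 against 6.6, 20.8 and 22.3, and rose by 0.39 (SE 0.13, adjusted p = 0.0268). H2BC3 had 6.2, 2.4 and 4.3 against 16, 5.4 and 17.3, which overlapped, and rose by 0.30 (SE 0.10, adjusted p = 0.038). All but H2AC17 stayed below the table's median signal of 36.2 on every treated array at 24 h, and no detection calls were used.

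These rises depended on single arrays of 24 h. Omitting DMSO replicate 3 ended the H3C2 call (adjusted p = 0.0572). For H2AC17, the call ended when replicate 1 (0.0601) or 3 (0.137) of DMSO or replicate 1 (0.132) or 3 (0.0916) of MLN4924 was omitted, and on the signals as deposited (0.0722). For H1-1, it ended when replicate 1 (0.0689), 2 (0.0685) or 3 (0.0521) of DMSO or replicate 2 (0.123) or 3 (0.148) of MLN4924 was omitted. For H2BC3, it ended when replicate 2 (0.135) or 3 (0.0819) of DMSO or replicate 1 (0.156) or 3 (0.191) of MLN4924 was omitted, and on the signals as deposited (0.0505). With 1 added in place of 32, the rises were 1.80 for H3C2, 1.51 for H1-1, 1.32 for H2BC3 and 1.15 for H2AC17, and the H2AC17 call was lost (0.204).

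Signal and direction went together among the members at 24 h, but the scale set part of this split in advance. A very dim probe set can hardly fall on it, because of the constant added to the signal, while its rise has no such limit. Vehicle means at 24 h were 4.28 for H2BC3, 4.54 for H1-1 and 6.85 for H3C2. The lack of lower calls among such dim members therefore says little about their direction. All 6 called lower were among the 16 above the table's median signal, and none of these 16 was called higher, whereas all 4 called higher lay below that median. Most calls of the whole table also lay above its median signal, with 6005 of the 6878 lower ones and 5792 of the 6674 higher ones. The median change of the 16 was -0.307, against 0.005 for all above-median probe sets, of which 22% were lower and 21.2% higher. At 8 h the 16 held the 5 called lower and had a median of -0.228, against -0.004 for all above-median probe sets, of which 8.64% were lower and 9.42% higher. Within the 16, the changes at 24 h ran from -1.63 to 0.24, and 13 were negative. H1-2 and H2BC21, named after their values were seen, were among those not called: H1-2, a major somatic linker histone, changed by -0.54 (SE 0.22, adjusted p = 0.0786) and H2BC21 by -0.31 (SE 0.12, adjusted p = 0.0541).

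**Figure D3:**
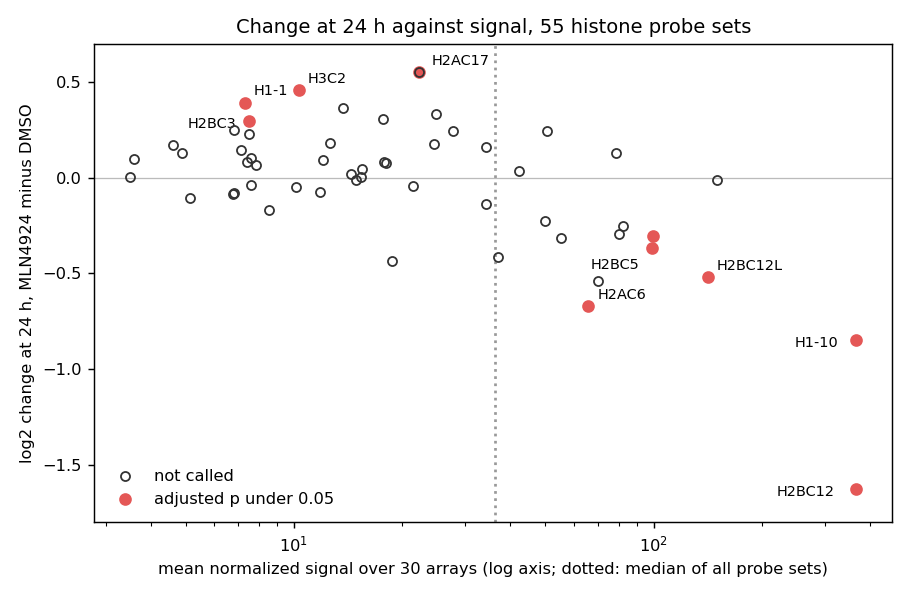
Log2 change at 24 h (MLN4924 minus DMSO) of the 55 histone probe sets against their mean normalized signal over 30 arrays on a log axis, with a dotted line at the median signal of all probe sets. Filled points passed an adjusted p under 0.05; the 6 lower ones lie right of the line and the 4 higher ones left of it, where H2AC14 (0.55, not called) coincides with H2AC17.

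The classes were compared by counts and medians. At 8 h the median change was -0.118 for H1, -0.032 for H2A, -0.135 for H2B, 0.046 for H3 and 0.037 for H4, and 0 for all probe sets. The 5 lower calls were 1 H1, 2 H2A and 2 H2B probe sets, and no H3 or H4 probe set was called. Over all probe sets 4.64% were lower and 5.1% higher at 8 h. With shares this low, the absence of calls among the H3 and H4 probe sets does not set these classes apart. At 24 h the medians were 0.045, 0.06, -0.108, 0.103 and 0.163 in the same order, and 0.009 for all probe sets. H2B had 4 of 15 lower and 1 higher, H1 had 1 of 12 each way, H2A 1 of 10 each way, H3 1 of 9 higher, and H4 none of 9, against 12.6% of all probe sets lower and 12.2% higher. Differences between classes were not tested. Only 3 of the 18 H3 and H4 probe sets and 3 of the 12 H1 ones were above the median signal. H1-7 alone gave 3 of the 12 H1 probe sets, with mean signals of 12.6, 6.8 and 3.5, and each counted in the H1 median. Probe sets shared by several histone genes are not in these counts and medians.

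**Figure D4:**
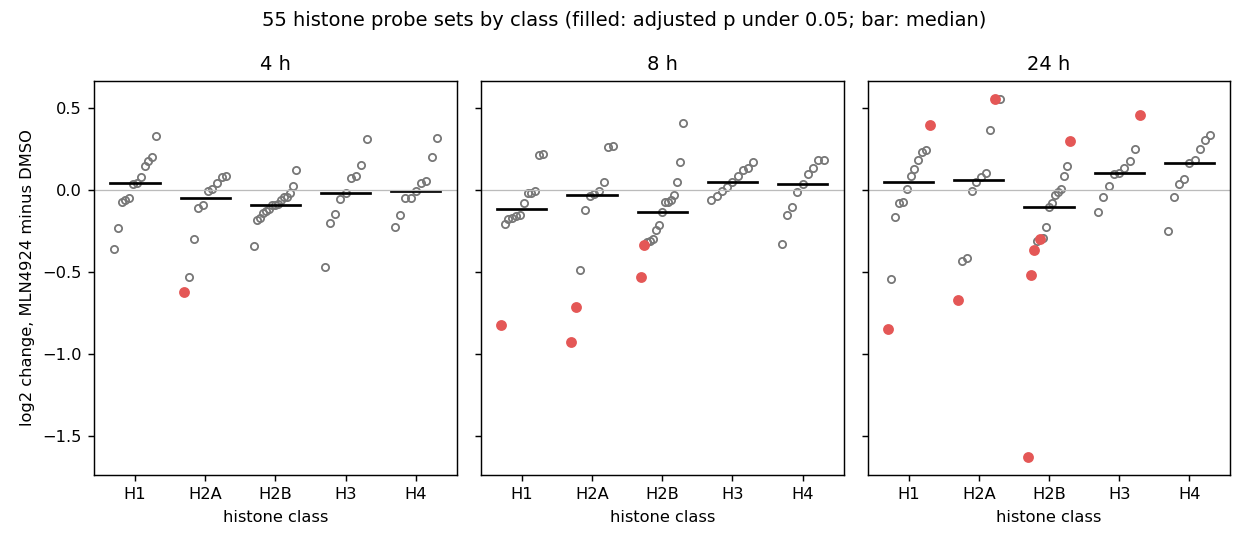
Log2 change (MLN4924 minus DMSO) of each of the 55 histone probe sets at 4, 8 and 24 h by class, with a bar at the class median. Filled points passed an adjusted p under 0.05; at 24 h 4 of 15 H2B probe sets are lower, and the H4 column holds no filled point.

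The brightest H3 and H4 members had no called change against DMSO at any of the 5 times. A brighter H4 probe set, shared by several genes and so not a member, rose by 0.46 at 24 h (limma adjusted p = 0.000797). No H4 probe set shared by several genes was called lower at that time. H3C6, an H3 gene of the HIST1 cluster, had signals of 57.6, 87.2 and 66.0 with DMSO and 74.9, 105.8 and 61.0 with MLN4924 at 24 h. Its groups overlapped, and the change was 0.13 (95% interval -0.34 to 0.60, adjusted p = 0.784). H4C11 had 97.2, 79.8 and 67.9 with DMSO and 56.2, 45.4 and 93.2 with MLN4924, also overlapping, and changed by -0.25 (95% interval -0.57 to 0.07, adjusted p = 0.284). When MLN4924 replicate 3 of 24 h, with the highest of these treated signals, was omitted, the H4C11 change was -0.45 and was called (adjusted p = 0.0289).

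Some histone genes are read in opposite directions from a shared promoter region, and 5 measured pairs had starts within 1000 bases of each other. H2AC6 and H2BC4 start 246 bases apart. H2AC6 fell by 0.67 at 24 h, while H2BC4 changed by 0.00 (SE 0.15, adjusted p = 0.996). The H2BC4 probe set was dim, with means at 24 h of 12.1 with DMSO and 12.2 with MLN4924. A fall as large as that of H2AC6 could not have shown from this level on the scale used. These values therefore cannot tell whether the paired genes responded differently. H2AC17 and H2BC17, 240 bases apart, changed by 0.55 and 0.08, the second without a call. H2BC17 was dimmer still, with means at 24 h of 6.7 with DMSO and 9.0 with MLN4924. No probe set of the other 3 pairs was called at 24 h. The difference within a pair was not tested.

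Over time in vehicle alone, few of these genes were called. From 1 to 24 h in DMSO, 2 members were lower and none higher, against 5.72% of the table lower and 6.2% higher. H1-10 went from 477, 493.2 and 466.5 to 442, 317 and 336.5, and fell by 0.38 (SE 0.11, adjusted p = 0.0285). H3C3, an H3 gene of the HIST1 cluster, went from 16.47, 29.97 and 19.62 to 7.11, 2.12 and 4.57, and fell by 0.56 (SE 0.16, adjusted p = 0.02). In both, the 24 h arrays lay below the 1 h arrays. Omitting DMSO replicate 2 of 1 h ended both calls (0.0836 for H1-10, 0.106 for H3C3), as did omitting replicate 2 (0.167 and 0.0823) or 3 (0.122 and 0.054) of 24 h. Omitting replicate 1 (0.0723) or 3 (0.0603) of 1 h ended the H1-10 call. In the same vehicle cells 13 of 17 S phase genes, such as the replication licensing gene CDC6 (-0.87, adjusted p = 6.92e-07), were lower at 24 h, and their part in the histone values was not tested.

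From 1 to 24 h in MLN4924, 9 members were lower and 3 higher, against 10.9% and 10.5% of the table. H2BC12 went from 507, 449.8 and 452.9 to 129.9, 88.5 and 99.9, and fell by 1.87 (SE 0.14, adjusted p = 1.34e-10). H1-10 went from 422.1, 388.8 and 528.2 to 206.5, 164.3 and 192.3, and fell by 1.12 (SE 0.11, adjusted p = 3.65e-08). H2BC9 fell by 0.61 (SE 0.18, adjusted p = 0.0156), a call that omitting MLN4924 replicate 2 of 24 h ended (0.157). H4C11, named here outside the 3 largest falls because it had no call against DMSO, went from 82.3, 96.2 and 111.5 to 56.2, 45.4 and 93.2. Its groups overlapped and it fell by 0.43 (SE 0.15, adjusted p = 0.0463), without a call when replicate 2 (0.0973) or 3 (0.187) of 1 h or replicate 1 (0.149) or 2 (0.267) of 24 h was omitted. The dim probe sets of H4C7 (0.47, adjusted p = 0.0458), H3-4 (0.39, adjusted p = 0.0452) and H3C2 (0.38, adjusted p = 0.0272) rose, and their arrays overlapped for H3-4. These 3 rises were close to the threshold. Omitting 1 treated array at a time ended the H4C7 call for replicates 1 (0.154) and 3 (0.179) of 1 h and for each replicate of 24 h (0.0739 to 0.126). The H3-4 call ended for each replicate of 1 h (0.0623 to 0.142) and for replicates 1 (0.153) and 3 (0.297) of 24 h. The H3C2 call ended for replicates 2 (0.18) and 3 (0.0712) of 1 h and for replicates 1 (0.0772) and 2 (0.0932) of 24 h. Leaving out MLN4924 replicate 2 of 1 h or replicate 1 of 24 h gave 7 calls in place of 12. These values share the treated 24 h arrays with the comparison against DMSO.

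Probe sets that several histone genes share were counted separately. Of the 20, 6 were higher and 2 lower at 24 h, against 12.2% and 12.6% of all probe sets, with a median of 0.091 and a range from -0.50 to 1.15. The brightest, annotated to 14 H4 genes, had signals of 6519, 6943 and 7322 with DMSO and 9458, 9458 and 9623 with MLN4924 at 24 h. Its arrays did not overlap and it rose by 0.46 (SE 0.10, adjusted p = 0.000797). The probe set with the largest rise, shared by H2BC11 and H2BC8, had 15.7, 22.4 and 31.1 with DMSO and 91.4, 77.4 and 101.1 with MLN4924, and rose by 1.15 (SE 0.13, adjusted p = 2.59e-07). Which gene gave these signals cannot be told from the table. At 8 h none of the 20 was higher and 2 were lower, against 5.1% and 4.64% of all probe sets. These probe sets were described after their values were seen.

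Genes that drive histone transcription held more higher than lower calls with MLN4924. Of 11 measured, 2 were higher at 4 h, 5 at 8 h and 6 at 24 h, and 1 was lower, at 24 h. Over all probe sets 1.11%, 5.1% and 12.2% were higher at these times, and 12.6% were lower at 24 h. The 11 genes all had signals above the table's median. Among above-median probe sets 9.42% were higher at 8 h, and 21.2% were higher and 22% lower at 24 h. No test set the list against other genes. CCNE1, the cyclin E1 gene, rose by 0.56 (adjusted p = 0.000525), 0.92 (1.09e-07) and 0.75 (4.12e-07) at these times. At 24 h CDK2, its kinase partner, rose by 0.48 (adjusted p = 2.22e-06), and HINFP, a factor that binds H4 promoters, by 0.66 (2.05e-05). ATF2, a transcription factor of the CREB family, fell by 0.54 (0.00999). NPAT, the coactivator of histone genes, rose by 0.39 at 8 h (0.000181) and 0.25 at 24 h (0.00467).

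Genes of histone mRNA processing, translation and decay held calls in both directions. Of 17, 4 were higher and 2 lower at 8 h, against 5.1% and 4.64% of all probe sets, and 6 were higher and 6 lower at 24 h, against 12.2% and 12.6%. The 17 genes all had above-median signals. Among above-median probe sets 9.42% were higher and 8.64% lower at 8 h, and 21.2% and 22% at 24 h. LSM11, a subunit of the U7 particle that cuts histone transcripts, rose by 0.65 at 24 h (adjusted p = 4.04e-08), and ZNF473, which binds the same machinery, by 1.35 (3.47e-10). MIF4GD, the SLBP partner in histone mRNA translation, had 361.4, 343.6 and 374.2 with DMSO and 102, 101.2 and 98.4 with MLN4924 at 24 h. It fell by 1.56 (SE 0.06, adjusted p = 1.64e-15). CCNF, the cyclin F gene of an SCF ligase that targets SLBP, fell by 1.16 (1.55e-06). SLBP itself was higher at 8 h (0.33, SE 0.08, adjusted p = 0.00854) and without a call at 24 h (0.10, SE 0.08, adjusted p = 0.435).

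Replication-independent histone variants replace the canonical histones outside S phase or at special sites. Of 9 measured, 6 were lower and none higher at 24 h, with a median of -0.485, against 12.6% lower, 12.2% higher and a median of 0.009 over all probe sets, or 22% lower and 21.2% higher among the above-median ones. H2AX, the variant phosphorylated at DNA breaks, had 733.2, 671.1 and 754 with DMSO and 337.4, 313.5 and 405.8 with MLN4924. It fell by 0.97 (SE 0.09, adjusted p = 9.46e-09). CENPA, the centromeric H3, fell by 0.79 (adjusted p = 0.000307), H2AJ by 0.74 (0.00441) and H3-3A by 0.49 (0.00284). Of 21 chaperone and importer genes, 6 were lower and 2 higher at 24 h, against the same shares, with a median of 0.061. They included HJURP, which loads CENPA (-1.04, adjusted p = 3.97e-09), and NASP, which holds soluble H3 and H4 (-0.45, 1e-05). Of 17 S phase genes, 6 were higher and 4 lower, again beside 12.2% and 12.6% of all probe sets. Among above-median probe sets the shares were 21.2% and 22%. The called S phase genes included CDC6 (1.17, adjusted p = 7.34e-10) and CCNA2, the cyclin A2 gene (-0.97, 1.44e-08).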

How the data were processed

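RNA of A375 cells in 10 groups of 3 was measured on 30 arrays, and groups and replicate numbers came from the sample titles. The deposited value is an intensity, a linear signal per probe set. Affymetrix Expression Console made it, per the submitters' processing notes, with version and algorithm not given in the sources used here. Each array's 2% trimmed mean was 150.02, so the deposited values had been scaled. Array medians ran from 32.6 to 44, and ACTB 3′ to 5′ ratios from 1.144 to 1.744. Signals were quantile-normalized, transformed as log2(signal + 32) and modelled as 1 mean per group by limma 3.58.1 under R 4.3.3 (20 residual degrees of freedom), followed by eBayes. Tests were two-sided, with Benjamini-Hochberg adjustment over 54613 non-control probe sets per comparison. Tested on simulated data for the 24 h comparison, 40 of 78 changes of 0.5, 49 of 60 of 1 and all 62 of 2 on the log2 scale were recovered. Of the 161 simulated calls, 10 were false. The simulation changed 200 probe sets, whatever their signal, while 13552 were called in the real comparison. Dim probe sets cannot fall that far on this scale, so these rates do not describe the mostly dim members. The number of arrays limits the precision.

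The members and gene lists were chosen with earlier results of these data known. For each comparison the called members with the 5 largest changes each way, the brightest of each class, H1-10 and, between times, the 3 largest each way were named, with up to 4 called genes per pathway list. NPAT, SLBP, H1-2, H4C11 between times, H2BC21, H2BC4, H2BC17 and H2AC14 fall outside this rule and were chosen after their values were seen. Alternatives were other normalizations and added constants, a filter on dim probe sets, removal of _x_at and _s_at probe sets, 1 probe set per gene, array weights, the ACTB ratio as covariate, a replicate block, the 6 compared arrays alone and leaving out single arrays. Same-numbered arrays correlated in their deviations between -0.152 and 0.098, so numbers were not used as pairs. The listed genes POU2F1, H3-3B and H2BW1 were not analysed here. The S phase list held 18 genes, of which 17 were counted in it, and the list of melanoma markers held 9, of which 8 were measured.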

Additional observations from a re-analysis of the deposited data

Results flagged for a closer look

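The effect of MLN4924 on 3 histone probe sets differed between 8 and 24 h by a test of the difference itself (limma, Benjamini-Hochberg adjustment over all probe sets). That is 2 of 55 higher and 1 lower, against 5.86% and 6.56% of all probe sets. The H2BC12 effect deepened by -1.10 (adjusted p = 0.000237), and the brighter H2AC25 probe set returned toward the vehicle level by 0.70 (adjusted p = 0.00244). Both kept their calls under all 22 alternatives. H1-1, a dim probe set, changed by 0.60 (adjusted p = 0.0311), and this call was lost under 9 of 21 alternatives. These included 8 of the 12 that leave out 1 array: DMSO replicates 1 and 3 and MLN4924 replicates 1 and 3 of 8 h, and DMSO replicates 1 and 2 and MLN4924 replicates 2 and 3 of 24 h (adjusted p from 0.0561 to 0.0965).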

How the results depend on the processing

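No value of the 38 named pairs of probe set and comparison reversed a called direction in 628 alternatives: 503 kept their side of the threshold, 124 lost a call and 1 gained one. The lower calls of H1-10, H2AC25 and H2AC6 at 8 h, and of H2BC12, H1-10, H2AC6 and H2BC12L at 24 h, held under every alternative run for them. Removing all _x_at and _s_at probe sets took out 9 and 5 of the 55 members, H1-10 and H2AC6 among them. Called members then numbered 0 at 4 h, 2 at 8 h and 4 at 24 h (3 higher, 1 lower). There was 1 from 1 to 24 h in DMSO, 2 in MLN4924 and 3 in the F test. With 1 added to signals, 0 were called at 4 h. In DMSO from 1 to 24 h, 1 in place of 2 was called with signals as deposited, median centring, 1 added, probe sets below the median signal left out or the 6 arrays alone, and in MLN4924 the 6 arrays alone gave 4 in place of 12. The change from 4 to 8 h had 1 member lower in place of 0 (0.696% of the table) with probe sets below the median signal left out, 1 probe set per gene or array weights. Leaving out 1 array gave 0 to 1 calls at 4 h, 3 to 5 at 8 h, 6 to 13 at 24 h, 2 to 4 for the change from 8 to 24 h, 0 to 2 in DMSO, 7 to 9 in MLN4924 and 7 to 10 in the F test. The lowest came without DMSO replicate 3 or MLN4924 replicate 3 at 8 h, and without DMSO replicate 3 at 24 h. With the replicate block, 1, 5 and 9 members were called at 4, 8 and 24 h, 2 in DMSO and 11 in MLN4924, and H2BC5 lost the call of its second probe set (adjusted p = 0.0538). The cause of these differences was not tested. At 2 h, leaving out the 2 DMSO arrays with high ACTB ratios, an alternative chosen after seeing the data, gave 0 calls as before. Dim signal limits most members, since 16 of 55 lay above the median.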
